A study of Mus musculus with 6 samples.

Results

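The genes described here are 36 genes of the unfolded protein response and of the transcription factor ATF4, chosen by name from 26094 genes in a transcript table of 4T1 cells, a mouse mammary carcinoma line. They comprise 5 transcription factors, 13 endoplasmic reticulum (ER) chaperones and degradation factors, 5 genes of serine and one-carbon metabolism, 7 genes of amino acid supply and the ATF4 stress programme, and 6 cytosolic tRNA synthetases. Messenger RNA was sequenced in 3 libraries of cells stably expressing mouse Limch1 from a lentiviral vector (Limch1_OE) and in 3 libraries of cells carrying the empty vector (Vector). Both groups had been infected with virus packaged in HEK293T cells, a human embryonic kidney line, and selected with antibiotics from 48 hours after infection. Both grew in RPMI 1640 with 10% serum. The groups follow the sample titles. The genotype labels of Limch1_OE replicates 2 and 3 read Limch2_OE and Limch3_OE, and the cell line label counts up from 4T1 over the 6 samples, in conflict with the titles. The promoter driving Limch1, the antibiotic and clonality are not given in the labels. Nor is it stated that replicates were independent cultures, so p-values reflect spread among 3 libraries per group that may be technical. Uninfected cells were not analysed here.

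The ER folds secreted and membrane proteins. When folding demand outruns capacity, the sensors IRE1, PERK and ATF6 signal to the nucleus: IRE1 splices the Xbp1 mRNA, ATF6 is cleaved to an active factor, and PERK phosphorylates the translation factor eIF2. Phosphorylated eIF2 slows most translation but favours that of the Atf4 mRNA. Other eIF2 kinases, among them the amino acid sensor GCN2 and the double-stranded RNA sensor PKR, reach ATF4 too, a convergence called the integrated stress response. ATF6 and spliced XBP1 are known to raise chaperone and ER degradation genes, whereas ATF4 is known to raise genes of amino acid uptake, serine synthesis and tRNA charging. In tumour cells both arms are studied for their role in growth under nutrient stress.

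All values are FPKM, fragment counts scaled by the authors for transcript length and library size, added up per gene over its transcripts. FPKM summed to between 414837 and 425064 per library, 11621 to 11860 genes per library reached 1 FPKM, with read depth unknown. Limch1 was at 0.25, 0.15 and 0.1 FPKM in the Vector libraries and at 23.96, 23.31 and 25.69 FPKM in the Limch1_OE libraries, without overlap. Of 8 mammary epithelial markers 7 were listed and above the minimum, summing to between 1758 and 2001 FPKM. Epcam and Cdh1 were lower in Limch1_OE and the other 5 did not pass. Of 12 leukocyte markers 7 were listed, and their sum was between 0.1 and 0.5 FPKM in every library. Of 10 fibroblast and endothelial markers 8 were listed, with a sum between 0.2 and 0.5 FPKM. Mitochondrially encoded mRNAs took 5.10, 4.39 and 4.42% of all FPKM in Vector and 8.20, 5.89 and 6.04% in Limch1_OE. Interferon-stimulated genes were far lower in Limch1_OE, with Irf7 at 292.0 ± 18.7 FPKM in Vector and 17.7 ± 1.75 in Limch1_OE (SD, n = 3 each).

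All 36 genes were listed, each had its principal transcript listed, and each was above 1 FPKM in all 6 libraries, so none entered the test through 1 group alone. They were abundant, with a median of 82.9 FPKM over the 6 libraries against 12.03 FPKM over the 11842 genes tested. The highest was Hspa5, at a mean of 511.7 FPKM, and the lowest Slc7a11, at 3.39 FPKM. Together they took 1.02, 1.02 and 1.08% of all FPKM in the Vector libraries and 0.941, 0.998 and 1.02% in the Limch1_OE libraries. In bulk RNA, fewer cells expressing a gene and less RNA per cell cannot be told apart.

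The comparison asked how stable Limch1 expression changes these genes. The stress transcription factors Atf5 and Ddit3 rose, as did Trib3, whose call held in 13 of 17 alternative settings. A set of ER folding and degradation genes led by Creld2, and the serine synthesis gene Psph, fell. The glutamyl-prolyl-tRNA synthetase gene Eprs rose by 28.8% in mean FPKM while the asparaginyl-tRNA synthetase gene Nars fell by 19.8%. The master factor Atf4 and the main ER chaperone Hspa5 did not pass the test. All differences were modest, between -0.52 and 0.61 on the log2(FPKM + 1) scale.

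By limma (Benjamini-Hochberg adjusted p under 0.05, adjusted across the 11842 genes), 7 of the 36 genes were higher in Limch1_OE, 13 were lower and 16 did not pass. Over all tested genes 20.2% were called higher and 14.4% lower (34.6% in either direction), against 19.4% and 36.1% of the 36. The 36 were chosen with earlier results of these data known, so their shares, by role too, are not independent support. The median log2 fold change was -0.05 over the 36 and 0.04 over all tested genes. The split depended on scaling. With each library divided by its median ratio 4 of the 36 were higher and 13 lower, and all tested genes split into 1900 higher and 2052 lower in place of 2388 and 1706. With quantile normalization 9 of the 36 were higher and 10 lower. The count of higher genes was 3, 4 and 4 without Vector replicates 1, 2 and 3 and 3 without Limch1_OE replicate 2, and that of lower genes was 8 and 7 without Vector replicates 1 and 3. All 20 called genes kept their sign under all 17 alternative settings. The call itself held under all 17 for 8 of them, namely Atf5, Ddit3, Creld2, Pdia4, Manf, Psph, Nars and Eprs.

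**Figure D1:**
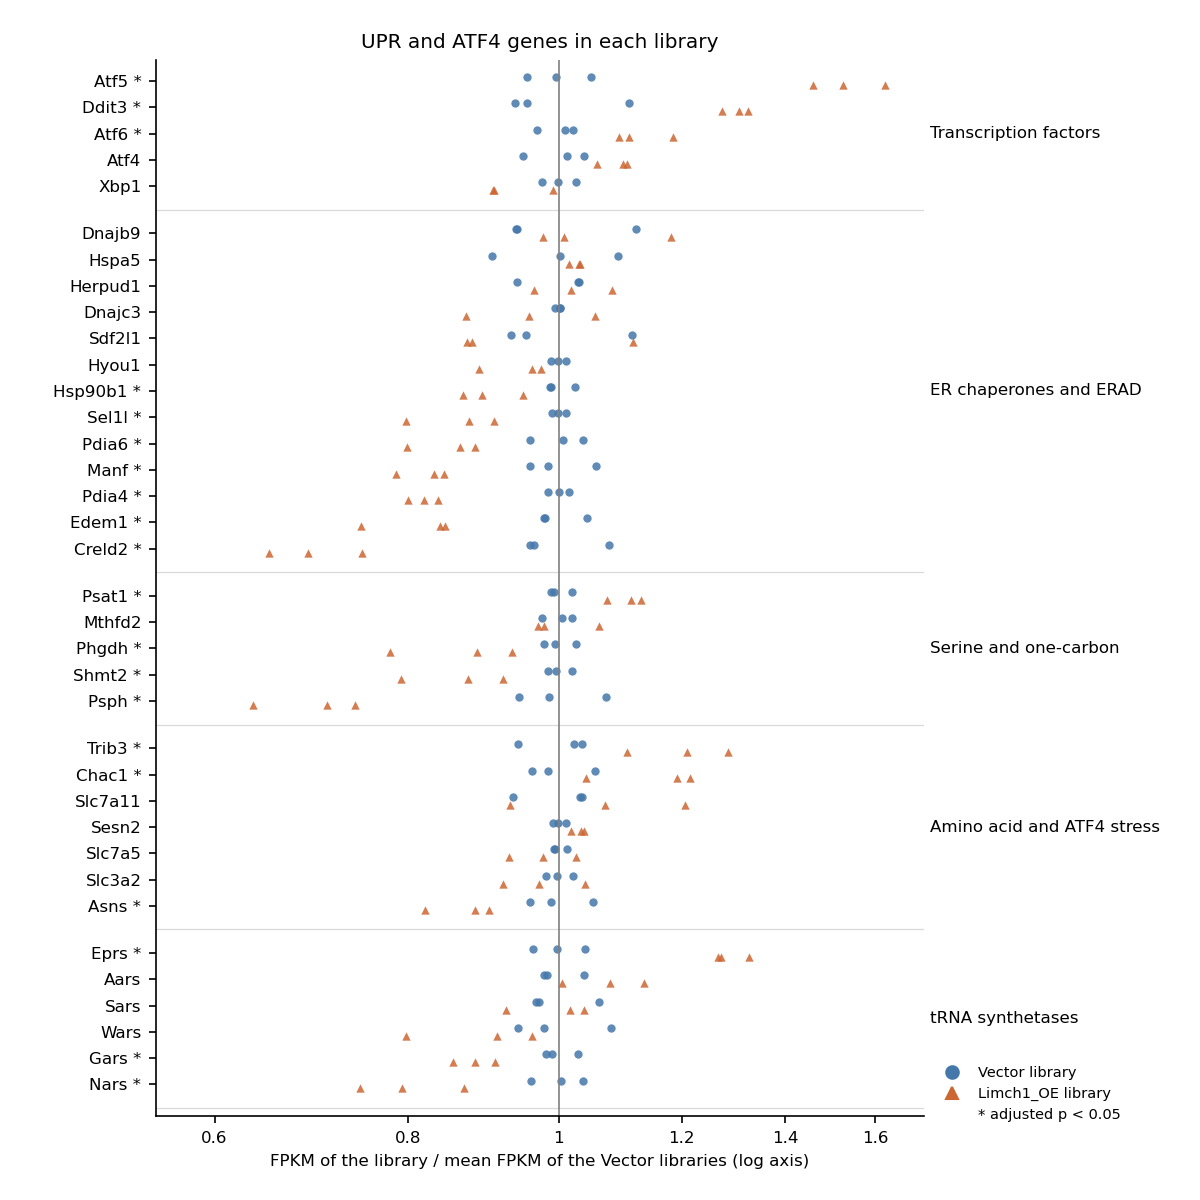
FPKM of each library divided by the mean of the 3 Vector libraries (log axis) for the 36 genes, grouped by role. Circles are Vector and triangles Limch1_OE libraries, and an asterisk marks genes with an adjusted p under 0.05 by limma. Triangles lie to the right for Atf5, Ddit3 and Eprs and to the left for Creld2 and Psph, with no overlap in these 5 genes. Of all tested genes 28.6% lie wholly to the right and 20.5% wholly to the left.

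Of the transcription factors 3 of 5 rose and none fell, 60.0% against the 20.2% called higher over all tested genes, and the call of 1 of the 3, Atf6, ended in most fits that left out a library. Atf5, an ATF4 target and relative that regulates the mitochondrial stress response, was at 55.81, 58.23 and 61.34 FPKM in Vector replicates 1 to 3 and at 85.24, 89.22 and 94.87 FPKM in Limch1_OE replicates 1 to 3. The lowest Limch1_OE library thus lay well above the highest Vector library. Its mean was 53.6% higher, with a log2 fold change of 0.61 (SE 0.06) and a limma adjusted p of 8.93e-05, the largest increase among the 36. Ddit3, which encodes the pro-apoptotic factor CHOP, was at 46.08, 46.92 and 54.59 FPKM in Vector and at 62.69, 64.3 and 65.13 FPKM in Limch1_OE. The groups did not overlap, and Vector replicate 3 stood closest to the Limch1_OE libraries. Ddit3 differed on the log2 scale by 0.38 (SE 0.07, limma adjusted p = 0.00311).

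Atf4 itself was at 172.35, 184.08 and 188.83 FPKM in Vector and at 192.43, 200.04 and 201.21 FPKM in Limch1_OE. All Limch1_OE libraries were above all Vector libraries, as for 28.6% of tested genes, but the difference was small. The log2 fold change was 0.12, with a 95% interval from 0.01 to 0.24 for the gene alone, and it did not pass after adjustment (limma adjusted p = 0.0859). ATF4 is controlled mainly at translation, and protein was not analysed here. Atf6, the membrane-bound sensor, rose by 0.17 on the log2 scale (limma adjusted p = 0.0363), a call that ended without any of the Vector libraries or without Limch1_OE replicate 1 or 2 (adjusted p up to 0.119). Xbp1 was at 35.97, 36.92 and 35.13 FPKM in Vector and at 35.7, 32.7 and 32.68 FPKM in Limch1_OE. The groups overlapped, the log2 fold change was -0.09 (95% interval -0.21 to 0.03), and the spliced form was not told apart from the unspliced form.

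Exons of Atf5 and Ddit3 overlap genes on the opposite strand, and whether the counting used strand is not given in the sources used here. Reads of the overlapping genes can then not be told apart in the shared stretches. Nup62, opposite Atf5, was at 58.9 FPKM in Vector and 48.3 in Limch1_OE. The methionyl-tRNA synthetase gene Mars, opposite Ddit3, was at 56.7 and 50.2 FPKM.

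**Figure D2:**
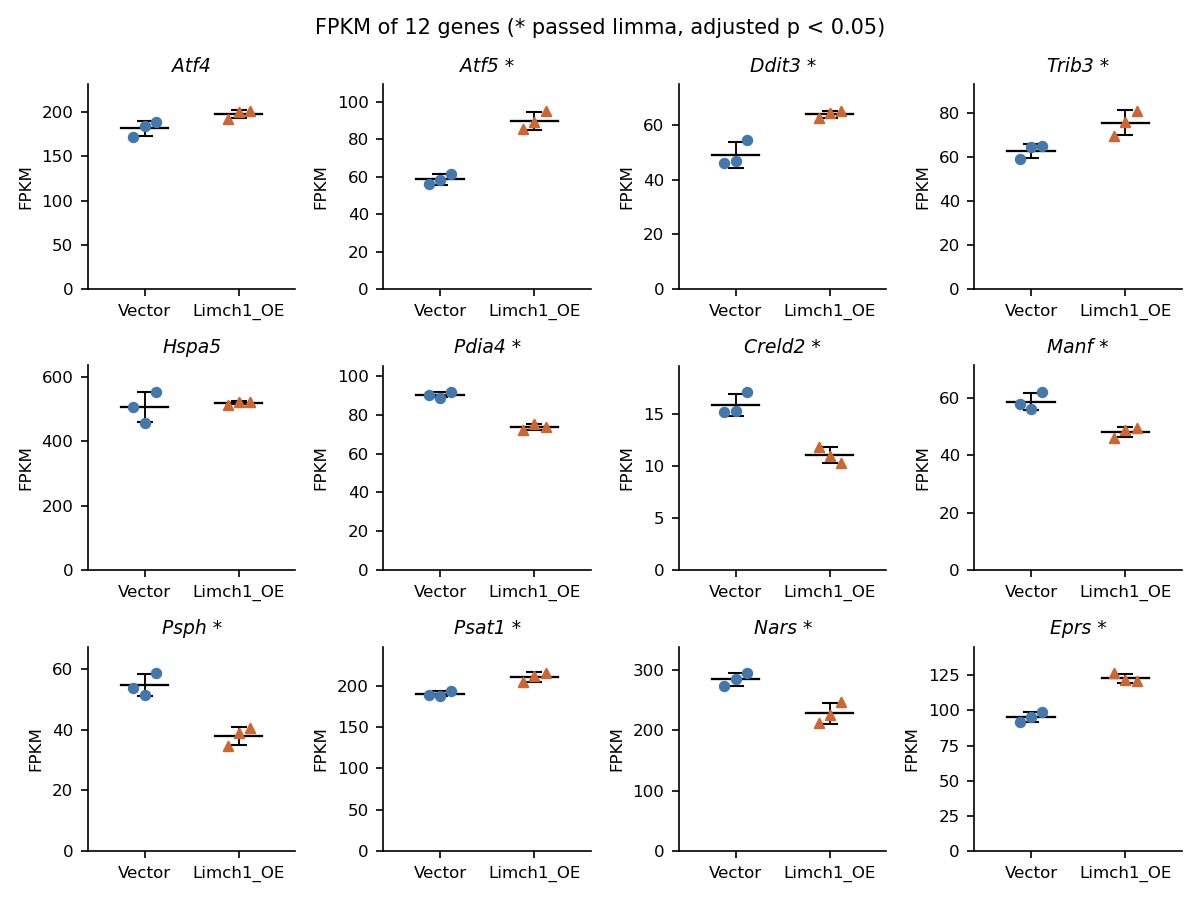
FPKM of 12 of the 36 genes, 1 point per library, with the mean (horizontal line) and SD (bars) of the 3 libraries in each group. Axes start at 0. Atf5, Ddit3, Trib3, Psat1 and Eprs rose, Pdia4, Creld2, Manf, Psph and Nars fell, and Atf4 and Hspa5 did not pass the test.

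Among the 13 ER chaperones and degradation factors, 7 fell and none rose, 53.8% against the 14.4% called lower over all tested genes. Their median log2 fold change was -0.15. These genes were chosen with earlier results of these data known, so the share is not independent support. Creld2, an ER-resident protein that is induced and secreted under ER stress, was at 15.18, 15.26 and 17.05 FPKM in Vector and at 11.82, 10.91 and 10.29 FPKM in Limch1_OE. Its mean was 30.5% lower, with a difference of -0.49 on the log2 scale (SE 0.07, adjusted p = 0.0013 by limma). The disulfide isomerase gene Pdia4 was at 90.5, 88.96 and 91.73 FPKM in Vector and at 72.24, 75.53 and 73.96 FPKM in Limch1_OE. Both groups of Pdia4 were tight, with SDs of 1.39 and 1.65 FPKM around a fall of 18.2%, which is -0.29 on the log2 scale (SE 0.04, adjusted p = 0.00133 by limma). Manf, a neurotrophic factor released from the stressed ER, was at 57.79, 56.24 and 62 FPKM in Vector and at 46.11, 48.79 and 49.46 FPKM in Limch1_OE. The fitted difference was -0.28 on the log2 scale (limma adjusted p = 0.00453).

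The disulfide isomerase gene Pdia6 fell by 0.24, from 134.1 ± 5.26 to 113.8 ± 5.94 FPKM (SD, n = 3 each). Of the degradation factors, Edem1, which steers misfolded glycoproteins to disposal, fell by 0.29, and Sel1l, the scaffold of the HRD1 ubiquitin ligase, fell by 0.21. For each of these 3 genes every Limch1_OE library lay below every Vector library, as for 20.5% of all tested genes. The call for Sel1l ended without Vector replicate 1 or 3 (adjusted p up to 0.0582), and when only the most abundant transcript was used the calls for Edem1, Sel1l and Pdia6 all ended, although the log2 fold change of Edem1 was then -0.32, the log2 fold change of Sel1l -0.41 and the log2 fold change of Pdia6 -0.36, each farther from 0 than for the sum. Hsp90b1 (GRP94), the ER member of the HSP90 family, fell by 0.15 (limma adjusted p = 0.0453). That call ended without any of the Vector libraries, without Limch1_OE replicate 2 or 3 (adjusted p up to 0.136), and when libraries were rescaled without the mitochondrial genes.

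The remaining 6 did not pass. Hspa5 (BiP or GRP78), the HSP70 of the ER and its most abundant chaperone, was at 505.69, 457.56 and 551.77 FPKM in Vector and at 513.16, 521.21 and 520.76 FPKM in Limch1_OE. The Limch1_OE libraries lay inside the Vector range, and the 95% interval of the log2 fold change, -0.11 to 0.20, spans both directions. The HSP70 exchange factor gene Hyou1 had groups that did not overlap but a log2 fold change of only -0.09 (limma adjusted p = 0.194). The J-domain co-chaperone genes Dnajb9 and Dnajc3, the J-protein partner Sdf2l1 and the degradation factor Herpud1 lay between -0.06 and 0.07, and all had overlapping groups. Manf shares exonic sequence with Dcaf1 on the opposite strand, at 26.0 FPKM in Vector and 29.3 in Limch1_OE, and with Rbm15b on its own strand, at 16.04 and 19.5 FPKM. Hsp90b1 overlaps 1810014B01Rik, which was at 4.14 and 5.26 FPKM.

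The ER stress element (ERSE) is the classical site for ATF6 and XBP1, so promoters were searched for it to see whether the genes that fell share it. It was read as CCAAT, 9 bases and CCACG, on both strands, in the window from 250 bases before to 50 bases after the RefSeq start. For Hspa5 and Aars that start lies so far downstream of the earliest start in GENCODE M21 that their stretches are inside the gene as annotated there. The RefSeq and GENCODE starts differ in other genes too, among them Hsp90b1, Pdia6 and Chac1, whose stretches lie outside the annotated gene. RefSeq promoters (GRCm38.p6) were matched for 30 of the 36 genes. For a gene not named below, lack of the element and lack of a matched promoter are not told apart here. The element was found in 5 of them, and in 0.119% of all 32851 promoters searched. Stretches are shown because genes that fell and genes that did not pass both carry it. They are written 5′ to 3′ on the gene's strand with the 2 parts of the element in capitals. Those that fell are Creld2 (chr15:88819505-88819553, plus strand), Pdia6 (chr12:17266476-17266524, plus strand) and Hsp90b1 (chr10:86705518-86705566 and chr10:86705623-86705671, minus strand). Dnajc3 (chr14:118937812-118937860, plus strand) did not pass, and neither did Hspa5, whose stretch (chr2:34772010-34772058) lies in an annotated 5′ untranslated region of the transcript Hspa5-201 and is not printed.
Creld2: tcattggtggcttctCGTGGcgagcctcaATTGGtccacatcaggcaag
Pdia6: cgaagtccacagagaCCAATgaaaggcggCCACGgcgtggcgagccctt
Hsp90b1, nearer the start: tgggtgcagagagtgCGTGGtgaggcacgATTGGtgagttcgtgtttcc
Hsp90b1, farther from the start: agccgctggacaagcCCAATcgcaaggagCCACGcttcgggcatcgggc
Dnajc3: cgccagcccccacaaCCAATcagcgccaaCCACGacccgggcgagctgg
The element began 126 bases before the RefSeq start in Creld2, 98 in Pdia6, 107 and 212 in Hsp90b1, 65 in Hspa5 and 105 in Dnajc3. In Creld2 and in the nearer Hsp90b1 stretch it lies on the opposite strand and so reads CGTGG first and ATTGG second. Of these 5 genes, 3 fell and 2 did not pass, with log2 fold changes from -0.49 in Creld2 to 0.04 in Hspa5. The unfolded protein response element core TGACGTGG was found in none of the 30 promoters and in 0.676% of all promoters. A match is a run of letters and not a measured binding site.

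The serine pathway did not move as one. Serine is made from a glycolytic intermediate by PHGDH, PSAT1 and PSPH in that order, and SHMT2 and MTHFD2 pass its carbon to folate in mitochondria. Of these 5 genes 3 fell, 1 rose and 1 did not pass, so 60.0% were lower against 14.4% of all tested genes. Psph, the last step, was at 53.99, 51.61 and 58.72 FPKM in Vector and at 34.79, 38.85 and 40.5 FPKM in Limch1_OE. This was the lowest log2 fold change of the 36, at -0.52 (SE 0.07, limma adjusted p = 8.39e-04), a mean 30.5% lower. Psat1, the step before it, went the other way, from 189.08, 188.19 and 194.18 FPKM in Vector to 204.7, 212.19 and 215.38 FPKM in Limch1_OE. The Psat1 groups did not overlap, but the log2 fold change was only 0.15 (limma adjusted p = 0.0308). The call for Psat1 ended with median-ratio scaling, among other settings, although its sign held in all 17.

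Phgdh, the committed step, was at 269.61, 274.1 and 282.72 FPKM in Vector and at 214.44, 243.91 and 257.2 FPKM in Limch1_OE. It fell by 0.21 (limma adjusted p = 0.0393), and Limch1_OE replicate 1 was the lowest library by a wide margin. Shmt2 was at 246.72, 255.78 and 249.74 FPKM in Vector and at 198.34, 219.26 and 230.68 FPKM in Limch1_OE. It fell by 0.22 (limma adjusted p = 0.0227), again with Limch1_OE replicate 1 lowest. Mthfd2 stood at 86.0 ± 1.93 FPKM in Vector and 86.3 ± 4.33 in Limch1_OE (SD, n = 3 each), with a log2 fold change of 0.00 and a 95% interval from -0.11 to 0.12. The calls for Phgdh, Psat1 and Shmt2 all ended without any of the Vector libraries. They also ended without Limch1_OE replicate 2, that for Phgdh without Limch1_OE replicate 1 and that for Psat1 without Limch1_OE replicate 3 (adjusted p up to 0.113, 0.109 and 0.0739 for Phgdh, Psat1 and Shmt2). The call for Psph held in each case. Over all 17 alternative settings the calls for Phgdh and Psat1 each held in 8 and that for Shmt2 in 11. Psph overlaps the chaperonin gene Cct6a on the opposite strand, which was at 201.6 FPKM in Vector and 243.5 in Limch1_OE. A named pseudogene, Phgdh-ps1, was listed at 5.19 and 4.54 FPKM, and reads shared with Phgdh may be split between them.

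**Figure D3:**
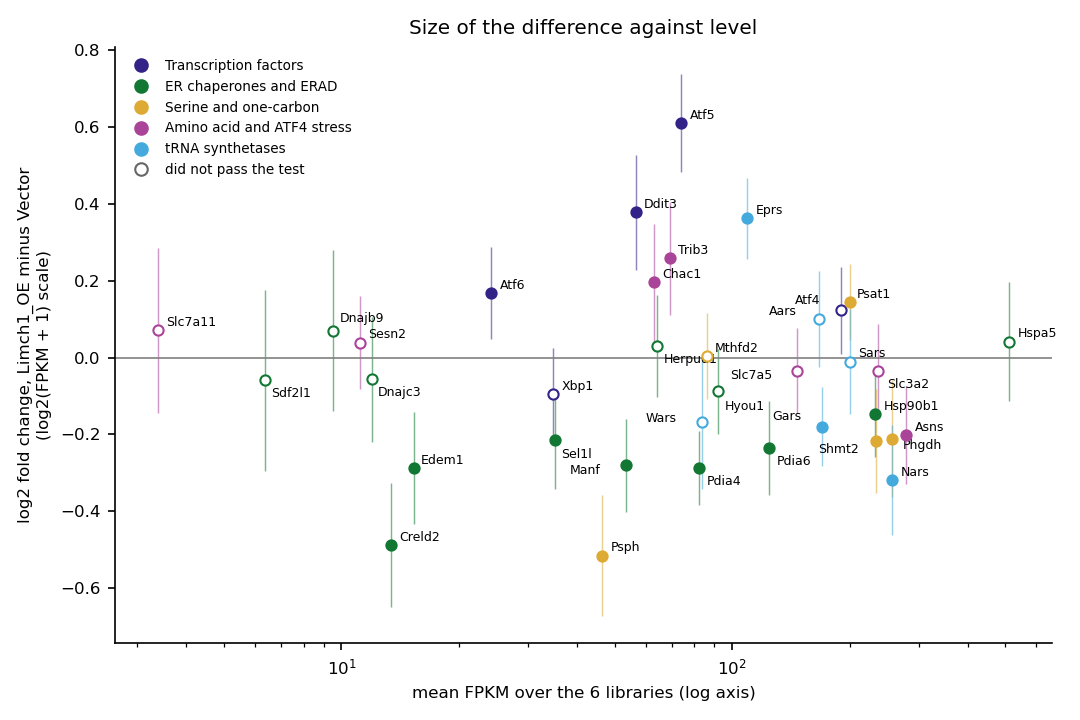
Log2 fold change (Limch1_OE minus Vector, log2(FPKM + 1) scale) against the mean FPKM over the 6 libraries (log axis) for the 36 genes, coloured by role. Bars are 95% intervals per gene without adjustment, and open points did not pass the test. Atf5 stands highest at 0.61 and Psph lowest at -0.52, and the 7 falling chaperone genes lie between -0.49 and -0.15.

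Of the 7 genes of amino acid supply and ATF4 stress, 2 rose and 1 fell (28.6% and 14.3%), against the 20.2% called higher and 14.4% called lower over all tested genes. Trib3, a pseudokinase that feeds back on ATF4 and CHOP, was at 59.18, 64.37 and 65.09 FPKM in Vector and at 69.54, 76.12 and 80.86 FPKM in Limch1_OE, without overlap. The fitted difference was 0.26 on the log2 scale (SE 0.06, limma adjusted p = 0.0151). Chac1, which degrades glutathione, was at 57.71, 61.82 and 56.29 FPKM in Vector and at 61.06, 71.27 and 69.84 FPKM in Limch1_OE. The groups overlapped by 1 library, and the call was at the edge, with a difference of 0.20 on the log2 scale (adjusted p = 0.0497 by limma). Asns, which makes asparagine and is a standard ATF4 readout, moved the opposite way. It was at 295.03, 285.97 and 313.82 FPKM in Vector and at 244.66, 263.61 and 269.14 FPKM in Limch1_OE, a fall by 0.20 (limma adjusted p = 0.023). Known ATF4 targets thus lay on both sides of 0. Without Vector replicate 1 or Limch1_OE replicate 2 the calls of all 3 genes ended. Those of Asns and Chac1 also ended without Vector replicate 3, and that of Chac1 without Vector replicate 2 or Limch1_OE replicate 3 (adjusted p up to 0.0595 for Trib3, 0.082 for Asns and 0.162 for Chac1).

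The other 4 did not pass. Slc7a5 and Slc3a2 are the light and heavy chains of the large neutral amino acid transporter LAT1. Slc7a5 was at 147.19, 149.86 and 147.1 FPKM in Vector and at 137.47, 144.65 and 151.93 FPKM in Limch1_OE, with a 95% interval of the log2 fold change from -0.14 to 0.08. Slc3a2 was at 234.67, 238.62 and 244.48 FPKM in Vector and at 220.19, 232.39 and 248.66 FPKM in Limch1_OE, with an interval from -0.16 to 0.09. For both chains the Limch1_OE libraries straddled the Vector range. Slc7a11, which pairs with Slc3a2 to import cystine, was much lower, at 3.28 ± 0.188 FPKM in Vector and 3.50 ± 0.450 in Limch1_OE (SD, n = 3 each). Sesn2, a leucine sensor that restrains mTORC1, was at 10.97, 10.89 and 11.1 FPKM in Vector and at 11.19, 11.4 and 11.35 FPKM in Limch1_OE. Its libraries did not overlap, yet the log2 fold change was 0.04 (limma adjusted p = 0.608).

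ATF4 binds a composite element with C/EBP family partners, called CARE, read here as TGATGCAA on either strand. It was found in 4 of the 30 matched promoters and in 0.895% of all promoters. The stretches are shown because only 1 of the 4 genes passed the test. They are Chac1 (chr2:119351034-119351071, plus strand), Slc7a11 (chr3:50443638-50443675 and chr3:50443657-50443694, minus strand), Herpud1 (chr8:94386302-94386339, plus strand). The stretch of Aars (chr8:111033715-111033752) lies in an annotated 5′ untranslated region of Aars-203 and is not printed. Capitals mark the element, which reads TTGCATCA where it lies on the opposite strand.
Chac1: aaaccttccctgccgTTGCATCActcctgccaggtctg
Slc7a11, nearer the start: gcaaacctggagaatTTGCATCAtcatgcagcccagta
Slc7a11, farther from the start: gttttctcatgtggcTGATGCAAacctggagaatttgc
Herpud1: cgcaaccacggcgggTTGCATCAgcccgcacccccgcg
Chac1 rose by 0.20, whereas Slc7a11, Aars and Herpud1 had log2 fold changes of 0.07, 0.10 and 0.03 and did not pass. The element began 193 bases before the RefSeq start in Chac1, 47 and 66 in Slc7a11, and 112 in both Aars and Herpud1. Herpud1 also carries the second form of the ER stress element (ATTGG, 1 base, CCACG), which 0.0365% of all promoters hold, beginning 52 bases before the RefSeq start.

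The 6 tRNA synthetases, which load amino acids onto their tRNAs, also split, with 1 higher (16.7%, against 20.2% of all tested genes), 2 lower (33.3%, against 14.4%) and 3 that did not pass. Eprs, which charges glutamate and proline, was at 91.91, 95.14 and 99.19 FPKM in Vector and at 126.47, 121.38 and 120.79 FPKM in Limch1_OE. Its groups were far apart, with a difference of 0.36 on the log2 scale (SE 0.05, adjusted p = 6.53e-04 by limma). Nars, which charges asparagine, was at 273.13, 285.49 and 294.79 FPKM in Vector and at 211.81, 225.35 and 247.26 FPKM in Limch1_OE. The highest Limch1_OE library was below the lowest Vector library, with a difference of -0.32 on the log2 scale (SE 0.06, adjusted p = 0.00549 by limma). Asns, which makes asparagine, was lower too, although its call held in only 12 of the 17 alternative settings. No grouping of genes by amino acid was tested. Gars, which charges glycine, fell by 0.18, from 180.5 ± 4.65 to 159.3 ± 5.03 FPKM (SD, n = 3 each), a call that ended without Vector replicate 3 (adjusted p = 0.061).

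Aars (alanine) was at 160.6 ± 5.36 FPKM in Vector and 172.3 ± 10.4 in Limch1_OE, and Sars (serine) at 200.4 ± 10.6 and 199.0 ± 12.05 FPKM (SD, n = 3 each). Both had overlapping groups. Wars (tryptophan), which is also known as an interferon-induced gene, was at 86.55, 83.29 and 95.53 FPKM in Vector and at 70.53, 85.02 and 80.66 FPKM in Limch1_OE. Its groups overlapped and its log2 fold change of -0.17 did not pass (limma adjusted p = 0.125). The interferon reference genes Isg15, Ifit1 and Ifit3 had log2 fold changes of -3.55, -3.53 and -4.62, and their part in the value of Wars was not tested.

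Levels within a group varied together across many of these genes. Limch1_OE replicate 1 was the lowest of its group for 25 of the 36 genes (69.4%), against 37.3% of all tested genes, and for 16 of the 18 genes of serine, amino acid and tRNA charging. Vector replicate 3 was the highest of its group for 27 of the 36 (75.0%), against 34.8% of all tested genes. The summed FPKM of the 18 genes by role shows the same order, since the serine genes summed to 735.6 FPKM in Limch1_OE replicate 1 and to 805.4 and 827.9 in the other 2. The mitochondrial share was also highest in Limch1_OE replicate 1. With libraries rescaled without mitochondrial genes, an alternative chosen after seeing the data, 7 of the 36 were higher and 12 lower. Without Limch1_OE replicate 1, 7 were higher and 12 lower as well, but only 6 of the higher genes had been called higher in the main fit. The median log2 fold change of the 36 was then -0.008 in place of -0.05.

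Of the 36 genes 19 had a single transcript of at least 1 FPKM on average, and 25 had at least 90% of their FPKM in 1 transcript. The others divide between transcripts in ways that differ from library to library. For Nars, the transcript Nars-213 was at 135.3, 170.17 and 145.03 FPKM in Vector and at 107.97, 105.24 and 80.47 in Limch1_OE. Nars-201 ranged from 53.22 to 134.18 FPKM over the Vector libraries alone. For Hspa5, Hspa5-202 was at 396.12, 273.43 and 419.99 FPKM in Vector and at 314.75, 357.54 and 332.89 in Limch1_OE, while Hspa5-201 was at 107.97, 182.47 and 129.55 and at 194.56, 161.18 and 185.27 FPKM. The gene sums were steadier than these parts, as in Nars, where the Vector libraries had an SD of 10.9 FPKM around 284.5. For Eprs, Atf5, Creld2 and Pdia4, nearly all signal came from 1 transcript, with Eprs-201 at 90.26, 92.95 and 97.97 FPKM in Vector and 123.52, 118.86 and 119.35 FPKM in Limch1_OE.

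Beyond the 36, 214 other genes of these pathways were listed by name, of which 197 were tested. Of these 37 rose and 21 fell, 18.8% and 10.7%, against 20.2% and 14.4% of all tested genes. With median-ratio scaling 28 were higher and 33 lower, and with quantile normalization 46 and 16. The count of higher genes was 23 without Vector replicate 1 and 24 without Vector replicate 3. That of lower genes was 11, 12 and 13 without Vector replicates 1, 2 and 3 and 13 without Limch1_OE replicate 2.

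Of 21 tested sensors and regulators of eIF2, 3 rose and 3 fell (14.3% each), against 20.2% and 14.4% of all tested genes. The sensor genes Ern1 (IRE1) and Eif2ak3 (PERK) did not pass. Ern1 was at 11.6 ± 0.372 FPKM in Vector and 13.1 ± 0.390 in Limch1_OE (SD, n = 3 each), a difference of 0.16 on the log2 scale (adjusted p = 0.0578 by limma). Eif2ak3 had a difference of 0.12 on the log2 scale (adjusted p = 0.22 by limma). Eif2ak2, which encodes the eIF2 kinase PKR and is interferon-inducible, fell by 1.21, from 35.5 ± 3.07 to 14.8 ± 1.21 FPKM. Ppp1r15a (GADD34), the stress-induced subunit that reverses eIF2 phosphorylation, rose by 0.46, from 33.5 ± 4.83 to 46.2 ± 0.776 FPKM (limma adjusted p = 0.00491). Its constitutive counterpart Ppp1r15b fell by 0.15. Atf6b, a relative of Atf6, rose by 0.28 and the ATF6-cleaving protease gene Mbtps2 by 0.23, while the related factor gene Creb3 fell by 0.43. The call for Mbtps2 ended without Vector replicate 1 or 2 or Limch1_OE replicate 1 or 2 (adjusted p up to 0.0772). That for Ppp1r15b ended without any of the Vector libraries or without Limch1_OE replicate 2 or 3 (adjusted p up to 0.0959).

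Of 31 other tested genes of ER folding 4 rose and 4 fell (12.9% each), against 20.2% and 14.4% of all tested genes. The cyclophilin gene Ppib fell by 0.50, from 250.6 ± 11.9 to 176.3 ± 7.97 FPKM (SD, n = 3 each). The lectin chaperone gene Calr, which is also part of MHC class I peptide loading, fell by 0.48, from 424.9 ± 18.5 to 305.6 ± 22.0 FPKM. Dnajb11, an Hspa5 co-chaperone, fell by 0.23. The sulfhydryl oxidase gene Qsox1 rose by 0.52, Cnpy3 by 0.25 and the prolyl isomerase gene Fkbp11 by 0.25. The call for Fkbp11 ended without Vector replicate 1 or 3 or Limch1_OE replicate 3 (adjusted p up to 0.0777). When only the most abundant transcript was used, the calls for Dnajb11, Qsox1 and Fkbp11 ended (limma adjusted p = 0.736 for Dnajb11 and 0.115 for Qsox1). Of 24 other degradation genes 2 rose (8.33%), the ubiquitin ligase gene March6 (0.28) and Ankzf1 (0.26). The call for Ankzf1 ended without Vector replicate 1 or 3 or Limch1_OE replicate 1 or 2 (adjusted p up to 0.13). Of 32 genes of ER entry and glycosylation 2 rose and 5 fell (6.25% and 15.6%), against 20.2% and 14.4% of all tested genes. The oligosaccharyltransferase gene Rpn1 fell by 0.40, from 74.5 ± 2.22 to 56.2 ± 1.21 FPKM. Its partner Rpn2 fell by 0.18 and the channel gene Sec61g by 0.21, and the signal peptidase genes Spcs3 and Spcs1 rose by 0.19 and 0.17. These last 4 calls each ended without Vector replicate 1 or 3 and without Limch1_OE replicate 2. They also ended without Vector replicate 2 except for Spcs1, without Limch1_OE replicate 1 for Spcs3 and Sec61g, and without Limch1_OE replicate 3 for Spcs1 and Sec61g (adjusted p up to 0.165).

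In one-carbon, proline and cysteine metabolism 5 of 16 tested genes rose and 2 fell (31.2% and 12.5%), against 20.2% and 14.4% of all tested genes. The proline synthesis gene Pycr1 rose by 0.48, from 20.6 ± 0.945 to 29.2 ± 1.64 FPKM (SD, n = 3 each). The glycine cleavage gene Amt was near the floor, at 0.75, 1.06 and 0.91 FPKM in Vector and 1.85, 1.96 and 1.36 in Limch1_OE. Amt met the filter only through the Limch1_OE libraries, so its rise of 0.51 is not independent of the filter. Without the filter on low values the call for Amt ended (limma adjusted p = 0.0523). The folate gene Mthfd2l rose by 0.33. Its relative Mthfd1l, which makes formate in mitochondria, fell by 0.45, from 42.2 ± 1.44 to 30.6 ± 1.57 FPKM, and the thymidylate synthase gene Tyms fell by 0.24. The calls for Mthfd2l and Tyms ended without Vector replicate 1 or 3 or Limch1_OE replicate 1 or 2. That for Mthfd2l also ended without Vector replicate 2 (adjusted p up to 0.106 for Mthfd2l and 0.123 for Tyms). When only the most abundant transcript was used, the calls for Mthfd1l, Mthfd2l and Tyms ended (limma adjusted p = 0.243 for Mthfd1l). Of 11 other amino acid transporters 3 rose and none fell, 27.3% higher against 20.2% of all tested genes. They were the glycine transporter gene Slc6a9 by 0.42, the lysosomal sensor gene Slc38a9 by 0.40 and the glutamine transporter gene Slc1a5 by 0.22. With only the most abundant transcript the calls for Slc38a9 and Slc1a5 ended (limma adjusted p = 0.0513 and 0.298).

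Among 24 other genes linked to ATF4, 5 rose and 3 fell (20.8% and 12.5%), shares close to the 20.2% and 14.4% of all tested genes. The angiogenic factor gene Vegfa rose by 0.56, Klhl24 by 0.42 and Ndrg1 by 0.34. Ddit4 (REDD1), an mTORC1 inhibitor, fell by 0.70, from 91.0 ± 3.12 to 55.8 ± 3.80 FPKM (SD, n = 3 each). The death receptor gene Tnfrsf10b fell by 0.22 and the AP-1 repressor gene Jdp2 by 0.19. The call for Tnfrsf10b ended without Vector replicate 1 or 2, and that for Jdp2 without any of the Vector libraries or Limch1_OE replicate 2 or 3 (adjusted p up to 0.0757 and 0.142). Atf3, a stress factor that is usually induced with Ddit3, was at 21.9 ± 0.154 FPKM in Vector and 22.4 ± 0.147 in Limch1_OE, with a difference of 0.03 on the log2 scale (adjusted p = 0.648 by limma). Cebpb, at 1.02 and 1.06 FPKM, did not pass either, and the stress cytokine gene Gdf15 was listed at 0 in all Limch1_OE libraries and at a mean of 0.01 FPKM in Vector.

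**Figure D4:**
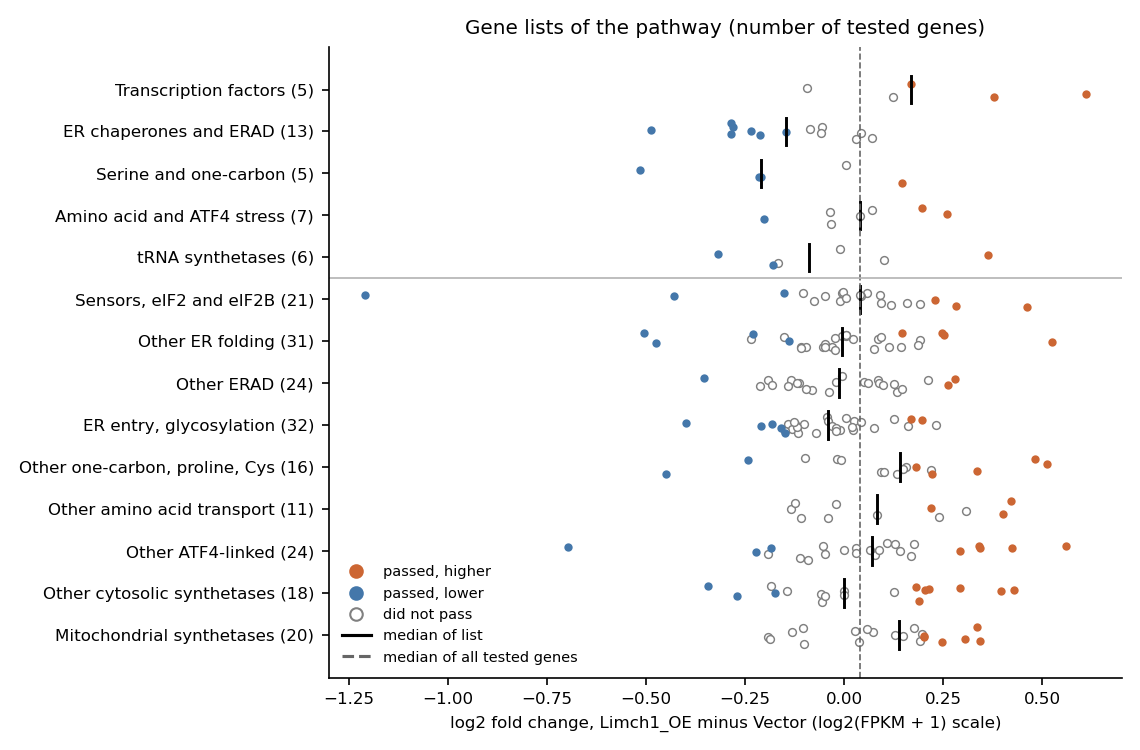
Log2 fold changes (Limch1_OE minus Vector, log2(FPKM + 1) scale) of all tested genes in the 5 role groups (above the grey line) and in the 9 other pathway lists (below it). Filled points passed the test, black bars are list medians, and the dashed line is the median of all tested genes at 0.04. The chaperone group has 7 points that passed on the lower side and none on the upper side, 53.8% lower against 14.4% of all tested genes. The other ER folding list has 4 points that passed on each side (12.9% each). All lists were chosen with earlier results of these data known.

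Of 18 other cytosolic synthetase genes and cofactors 7 rose and 3 fell (38.9% and 16.7%), against 20.2% and 14.4% of all tested genes. The phenylalanine enzyme has 2 subunits that moved apart, Farsb rising by 0.43 from 58.0 ± 0.789 to 78.3 ± 3.16 FPKM and Farsa falling by 0.27 from 54.3 ± 1.56 to 44.9 ± 2.59 FPKM (SD, n = 3 each). When only the most abundant transcript was used, Farsb stood at -0.03 and Farsa did not pass (adjusted p = 0.389), although the log2 fold change of Farsa was then -0.73. The threonine gene Tars rose by 0.40 and the isoleucine gene Iars by 0.29. The call for Tars ended with only the most abundant transcript (limma adjusted p = 0.0553). The cofactor gene Eef1e1 fell by 0.35, and the methionine gene Mars1, the current symbol of Mars, fell by 0.17, a call that ended without any of the Vector libraries or Limch1_OE replicate 1 (adjusted p up to 0.103). Of 20 mitochondrial synthetase genes and cofactors 6 rose and none fell, 30.0% higher against 20.2% of all tested genes, led by Gatc (0.34), Aars2 (0.34) and Hars2 (0.30). The call for Aars2 ended without Vector replicate 2 or 3 or Limch1_OE replicate 2 or 3 (adjusted p up to 0.0775). With only the most abundant transcript the calls for Aars2 and Hars2 ended (limma adjusted p = 0.0571 for Hars2).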

How the data were processed

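RNA from 6 libraries of 4T1 cells (3 Vector, 3 Limch1_OE, grouped by sample titles) was analysed. The authors deposited FPKM per transcript, to 2 decimals. Tools listed, without roles, in the submitters' processing notes are StringTie 2.2.1, featureCounts 2.0.1, fastp 0.23.2 and STAR 2.7.10. The build there is mm10. Low values showed no whole-fragment steps, so depth is unknown, no count test was run and precision rests on the SD of 3 libraries.

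The 77865 transcripts were summed over 26094 genes, of which 26033 matched GENCODE M21. The 11842 genes that reached 1 FPKM in 3 or more libraries were fitted in limma 3.58.1 (R 4.3.3, trended variance). The fit compared Limch1_OE with Vector as log2(FPKM + 1), with two-sided tests and Benjamini-Hochberg adjustment at 0.05. This scale understates changes of low genes. The script was tested on simulated data, where it recovered fewer changed genes than first required. That requirement was then replaced by ones on the accuracy of the estimates, on false calls and on recovery rising with size.

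The members and lists were chosen with earlier results of these data known. All 36 genes are named. From each other list the up to 3 highest and 3 lowest called genes are named, with Limch1, Eif2ak2, Eif2ak3, Ern1, Ppp1r15a, Calr, Atf3, Cebpb, Ddit4, Gdf15 and interferon genes; some genes under this rule are not reported here.

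The alternatives were other pseudocounts, filters, scalings, variance models, the most abundant transcript, a replicate block and leaving out each library.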

Additional observations from a re-analysis of the deposited data

How the results depend on the processing

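Of 1504 values for 89 named genes under the 17 alternatives, 1295 kept direction and side of the threshold, 181 no longer passed, 3 newly passed and 25 changed direction. The cause was not tested for any of them. Using only the most abundant transcript gave 997 higher and 999 lower among all genes, 3 and 6 among the 36, and 16 and 12 among the other pathway genes. It also put Hspa5 at -0.093, Farsb at -0.025 and Mars1 at 0.63. Without a filter on low values 3 of the 36 and 24 other pathway genes were higher. Median-ratio scaling gave 4 higher among the 36 and 33 lower among the others, with the log2 fold change of Herpud1 at -0.00868, that of Mthfd2 at -0.035 and Atf3 at -0.0076. Quantile normalization put Slc7a5 at 0.029, Slc3a2 at 0.028, Sars at 0.074 and Cebpb at -0.038. Without a variance trend 4 of the 36 were higher. Of the genes that changed direction, Farsb and Mars1 alone had passed the main test.

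Leaving out 1 library at a time gave 1578 to 2147 higher over all genes, 3 to 7 higher and 7 to 12 lower among the 36, and 23 to 34 higher and 11 to 19 lower among the others. In these fits Hspa5 ranged from -0.027 to 0.108, Dnajb9 from -0.0060 to 0.148, Dnajc3 from -0.121 to 0.0062, Herpud1 from -0.013 to 0.069 and Sdf2l1 from -0.16 to 0.012. Mthfd2 ranged from -0.037 to 0.028, the log2 fold change of Slc7a11 from -1.92e-05 to 0.145, Slc7a5 from -0.070 to 0.0019, Slc3a2 from -0.080 to 0.0070, the log2 fold change of Sars from -0.0431 to 0.040 and Cebpb from -0.017 to 0.101. Deviations of same-numbered libraries from their group means correlated at -0.0017, 0.046 and 0.059, against -0.067 to 0.027 for the other pairs. Values this small do not settle whether same-numbered libraries were handled together. With a replicate block 6 of the 36 were higher and 12 lower. Since read depth is unknown, no limit from counting error can be given.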
